A study of Arabidopsis thaliana with 12 samples.

Results

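The 7 polarity genes described here are *BASL* (AT5G60880), *POLAR* (AT4G31805) and the 5 members of the *BRX* family, namely *BRX* (AT1G31880), *BRXL1* (AT2G35600), *BRXL2* (AT3G14000), *BRXL3* (AT1G54180) and *BRXL4* (AT5G20540), taken by locus from a table of 23071 Arabidopsis thaliana genes. All 7 were found in the table and all 7 passed the filter on low counts. RNA came from whole seedlings of 4 transgenic lines in the mute-3 background, pooled by 50 at 2 days post-germination, with 3 libraries per line and 12 in all. Seedlings of every line grew with 1% sucrose at 21 °C. The days had 16 h of light, at 70 µmol per square metre per second, and 8 h of dark. The bHLH factor MUTE stops the asymmetric divisions of a stomatal lineage cell and turns it into a guard mother cell.

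Every line carried mute-3 and a *MUTE* transgene under the *MUTE* promoter. In MUTEv5#2 and MUTEv5#5, separate lines of the same allele, the protein carries R10W; per the labels the first line formed moderately clustered stomata and the second had severely arrested lineages. In MUTEPPP#3 the protein carries H3P, E7P and R11P, numbered as the submitters number residues. The line called MUTE carried the unmutated protein and served as the control. Each phenotype is thus represented by 1 line, and the lines were chosen for their epidermal phenotype.

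BASL is a scaffold protein that gathers at one side of a stomatal lineage cell before it divides asymmetrically, and after division it stays in the larger daughter, where it lowers the level of the lineage factor SPCH through a MAP kinase cascade. POLAR sits at the same cortical domain and brings in the GSK3-like kinase BIN2. BRX proteins bind membranes through lipid anchors and were first studied in the root phloem; in the leaf epidermis, members of the family act with BASL in the same polar domain and depend on it. All these roles are known from Arabidopsis, and most of the evidence concerns protein position, whereas the data here are transcript counts.

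The regions just before the annotated starts of *BASL* and *POLAR* are shown. These are the members whose transcripts passed the main test for a difference between lines. Capitals mark each match to the E-box CANNTG (either strand, N any base), the core letters recognised by bHLH factors. They were read from the TAIR10.1 reference assembly, 5′ to 3′ on the strand of the gene, and end at the base before the start.
BASL, chr5:24489837-24490086, minus strand: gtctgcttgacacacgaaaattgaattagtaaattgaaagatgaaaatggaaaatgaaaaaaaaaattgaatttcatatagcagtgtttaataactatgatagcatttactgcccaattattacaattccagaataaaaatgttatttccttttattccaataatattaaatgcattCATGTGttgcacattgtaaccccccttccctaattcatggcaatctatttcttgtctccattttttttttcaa
POLAR, chr4:15385101-15385279, plus strand: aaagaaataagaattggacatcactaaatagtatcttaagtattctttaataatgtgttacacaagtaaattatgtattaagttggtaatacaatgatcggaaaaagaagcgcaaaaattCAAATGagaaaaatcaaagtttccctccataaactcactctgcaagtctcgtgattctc
*BASL* had 1 match, CATGTG, 73 bases before the start. *POLAR* had CAAATG 59 bases before the start within the 179 bases shown, which stop where the neighbouring gene AT4G31800 ends, and CATTTG 187 bases before the start, inside that neighbour. In the same 250-base window *BRXL2* had 3 matches, *BRXL3* 1 (54 bases before the start, inside the neighbouring gene AT1G07947), and *BRX* and *BRXL4* none. An E-box was present in 56.3% of 21258 upstream windows of this length. The G-box CACGTG, which is also an E-box, was in neither the *BASL* nor the *POLAR* window and in 7.21% of all windows. These matches are letters only and show no binding.

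Within the transcripts the longest exact run shared by any pair of members was 34 bases, between *BRXL2* and *BRXL3*, and *BRX* and *BRXL1* shared 26 bases. Only a read lying wholly within such a short run would match both genes exactly. *BRX* and *BRXL1* lie on chromosomes 1 and 2, with 4743 and 4584 bases and with 7 and 5 exons in the longest transcript.

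*MUTE* itself, whose counts join the transgene and any native transcript, was at 12.9, 10.8 and 8.26 CPM (counts per 1000000 of the scaled library total) in MUTEv5#2, at 24.5, 14.4 and 16.8 CPM in MUTEv5#5, at 6.93, 5.42 and 5.32 CPM in MUTEPPP#3, and at 6.10, 5.00 and 4.85 CPM in MUTE. It was higher in both MUTEv5 lines than in MUTE, with log2 fold changes of 1.00 (adjusted p = 0.0315) and 1.81 (adjusted p = 0.00403) in edgeR's quasi-likelihood test. Libraries held 117868477 to 152600239 counts. The lines also differed in clock state: a clock index, the mean log2 CPM of 4 morning genes minus that of 5 evening genes, ranged from -0.42 to 0.86 in MUTEv5#2, 0.23 to 2.78 in MUTEv5#5, -5.12 to -0.68 in MUTEPPP#3 and 0.53 to 3.61 in MUTE. The hour of harvest was not given in the sources used here. Ribosomal and organelle transcripts took 1.10 to 2.92% of counts in MUTEv5#2, 1.11 to 1.53% in MUTEv5#5, 0.575 to 2.12% in MUTEPPP#3 and 0.397 to 1.28% in MUTE. No epidermis, guard cell, phloem or root meristem marker was at or under 3 counts in every library of a line.

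*BASL* (chromosome 5, 24488289 to 24489836, minus strand, 4 exons) was high in MUTEv5#2 and MUTEv5#5 and low in MUTEPPP#3 and MUTE. It had 9.07, 7.31 and 7.01 CPM in MUTEv5#2, 9.29, 8.33 and 7.97 CPM in MUTEv5#5, 3.81, 3.63 and 3.53 CPM in MUTEPPP#3, and 3.52, 2.69 and 2.99 CPM in MUTE. All 6 MUTEv5 libraries were above all 6 others, and the lowest MUTEPPP#3 library was barely above the highest MUTE library. The underlying counts ran from 327 to 1437.

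The test followed that ordering. *BASL* was 2.54-fold higher in MUTEv5#2 than in MUTE (log2 fold change 1.35, SE 0.136, 95% interval 1.05 to 1.65, adjusted p = 0.00131) and 2.78-fold higher in MUTEv5#5 (1.48, SE 0.136, interval 1.18 to 1.78, adjusted p = 5.48e-04). Both calls held in each of 11 other settings and in each of 12 fits without 1 library. Between the MUTEv5 lines the difference was 0.13 on the log2 scale (interval -0.16 to 0.42, adjusted p = 0.765), and their values overlapped. In MUTEPPP#3 the log2 fold change against MUTE was 0.26 (interval -0.04 to 0.55, adjusted p = 0.186), which did not pass the test although the libraries did not overlap. That value ran from 0.26 to 0.57 in the 11 other settings and from 0.19 to 0.39 without 1 library, and was called in none.

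*BASL* was lower in MUTEPPP#3 than in either MUTEv5 line, by 1.09 on the log2 scale against MUTEv5#2 (log2 fold change -1.09, adjusted p = 0.00614) and by 1.22 against MUTEv5#5 (log2 fold change -1.22, adjusted p = 0.00121). The first of these was -0.86, no longer called, when the clock index entered the fit (adjusted p = 0.0648), where the 11 other settings gave 1.34e-10 to 0.0648. RNA from whole seedlings cannot tell more *BASL*-expressing cells from more *BASL* RNA per cell, and this holds for every gene below.

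*POLAR* (chromosome 4, 15385280 to 15387097, plus strand, 3 exons) was graded between the MUTEv5 lines. It had 7.88, 8.05 and 7.53 CPM in MUTEv5#2, 11.5, 11.1 and 10.8 CPM in MUTEv5#5, 4.21, 4.45 and 5.72 CPM in MUTEPPP#3, and 5.14, 4.92 and 5.65 CPM in MUTE. The MUTEv5#5 libraries were all above those of MUTEv5#2, which were all above the 6 others, and MUTEPPP#3 and MUTE overlapped.

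*POLAR* was 2.13-fold higher in MUTEv5#5 than in the control (adjusted p = 0.00189; log2 fold change 1.09, SE 0.120), a call that held in all 11 other settings and in all 12 fits without 1 library. It was 1.49-fold higher in MUTEv5#2 (0.58, SE 0.119, interval 0.32 to 0.84, adjusted p = 0.0281). That call was lost without MUTE replicate 1 or 2 and without MUTEv5#2 replicate 1 or 2, with adjusted p from 0.0724 to 0.129, although the log2 fold change stayed between 0.53 and 0.63. It was also lost when the fit held the 2 compared lines alone (adjusted p = 0.0575) and with the ribosomal and organelle share as a covariate (adjusted p = 0.0895).

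Between the MUTEv5 lines *POLAR* differed by 0.51 on the log2 scale in favour of MUTEv5#5 (interval 0.25 to 0.77), with an adjusted p of 0.205 in edgeR and 0.00905 in DESeq2. In MUTEPPP#3 it was at -0.13 against MUTE (interval -0.39 to 0.14, adjusted p = 0.468). It was lower in MUTEPPP#3 than in MUTEv5#2 (log2 fold change -0.71, adjusted p = 0.0187) and than in MUTEv5#5 (-1.22, adjusted p = 9.19e-04). The comparison with MUTEv5#2 lost its call without MUTEPPP#3 replicate 2 and without any 1 MUTEv5#2 library, with adjusted p from 0.0507 to 0.0968. It was not called either when the clock index (adjusted p = 0.0586) or the ribosomal and organelle share (0.0745) entered the fit, or when the fit held these 2 lines alone (0.0763).

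The *POLAR* gene overlaps AT4G31810, on the opposite strand, by 310 bases. The kit marks strand, but the strand setting of the counting is not given in the sources used here, so reads in the overlap may belong to either gene. AT4G31810 was at 18.9 ± 0.278 CPM in MUTEv5#2, 17.0 ± 0.557 in MUTEv5#5, 20.8 ± 3.77 in MUTEPPP#3 and 13.2 ± 0.369 in MUTE (SD, n = 3). Its log2 fold changes against MUTE were 0.52 (adjusted p = 0.0324), 0.37 (adjusted p = 0.144) and 0.66 (adjusted p = 0.00341), so it was highest in MUTEPPP#3, where *POLAR* was near its MUTE level. Its part in the *POLAR* values was not tested.

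**Figure D1:**
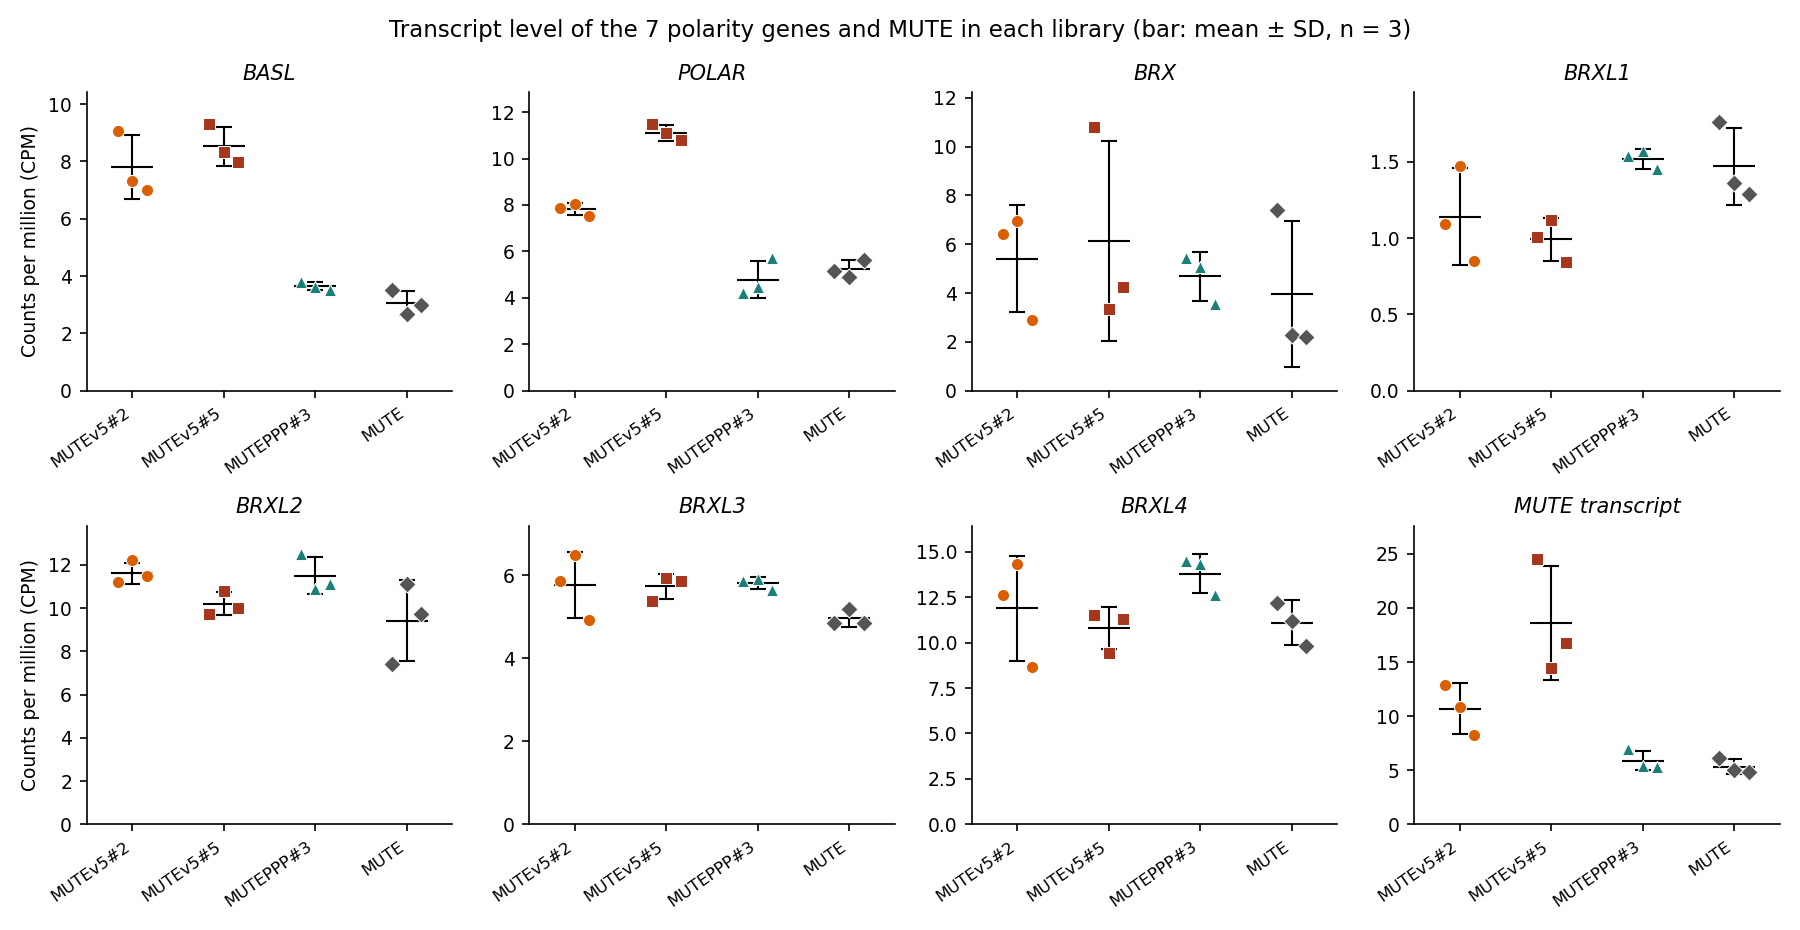
Points give the CPM of each polarity gene and of the *MUTE* transcript in each library of MUTEv5#2, MUTEv5#5, MUTEPPP#3 and MUTE, with the mean and SD of 3 libraries as bars. *BASL* and *POLAR* are highest in the MUTEv5 lines, while *BRX* spreads widely within each line, up to 10.8 CPM in MUTEv5#5 and 7.41 CPM in MUTE.

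Counted over the 7 genes, 2 were called higher in MUTEv5#2 than in MUTE and none lower, beside 1.48% of the 22636 genes tested called higher and 5.04% called in either direction. In MUTEv5#5 against MUTE the same 2 were called higher, beside 0.314% of all genes higher and 1.04% in either direction. In MUTEPPP#3 against MUTE none of the 7 was called in edgeR, limma-voom or DESeq2, in a comparison where 24.6% of all genes were called by edgeR, and none had an unadjusted p under 0.05. In MUTEv5#5 against MUTEv5#2 edgeR called none of the 7, beside 0.0663% of genes, limma-voom called none and DESeq2 called *POLAR*, which alone had an unadjusted p under 0.05 in edgeR (0.00127). In MUTEPPP#3 2 were called lower than in MUTEv5#2, beside 1.4% of all genes lower and 2.47% in either direction, and 2 lower than in MUTEv5#5, beside 9.38% lower and 15.7% in either direction. *BASL* and *POLAR* were the genes called by edgeR each time. Libraries of the compared lines did not overlap for 3, 4 and 3 of the 7 in MUTEv5#2, MUTEv5#5 and MUTEPPP#3 against MUTE, beside 30.3, 20.6 and 40.7% of all genes. They did not overlap for 2 in MUTEv5#5 against MUTEv5#2 (18.2% of all genes), 2 in MUTEPPP#3 against MUTEv5#2 (27.2%) and 5 in MUTEPPP#3 against MUTEv5#5 (33.3%). The comparisons share libraries, so they are not independent of each other. Earlier results of these data were known when members and lists were chosen, so the shares of all genes are given as description only. The median log2 fold change of the 7 against MUTE was 0.30 in MUTEv5#2, 0.21 in MUTEv5#5 and 0.24 in MUTEPPP#3, beside 0.000, -0.006 and -0.001 over all genes.

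**Figure D2:**
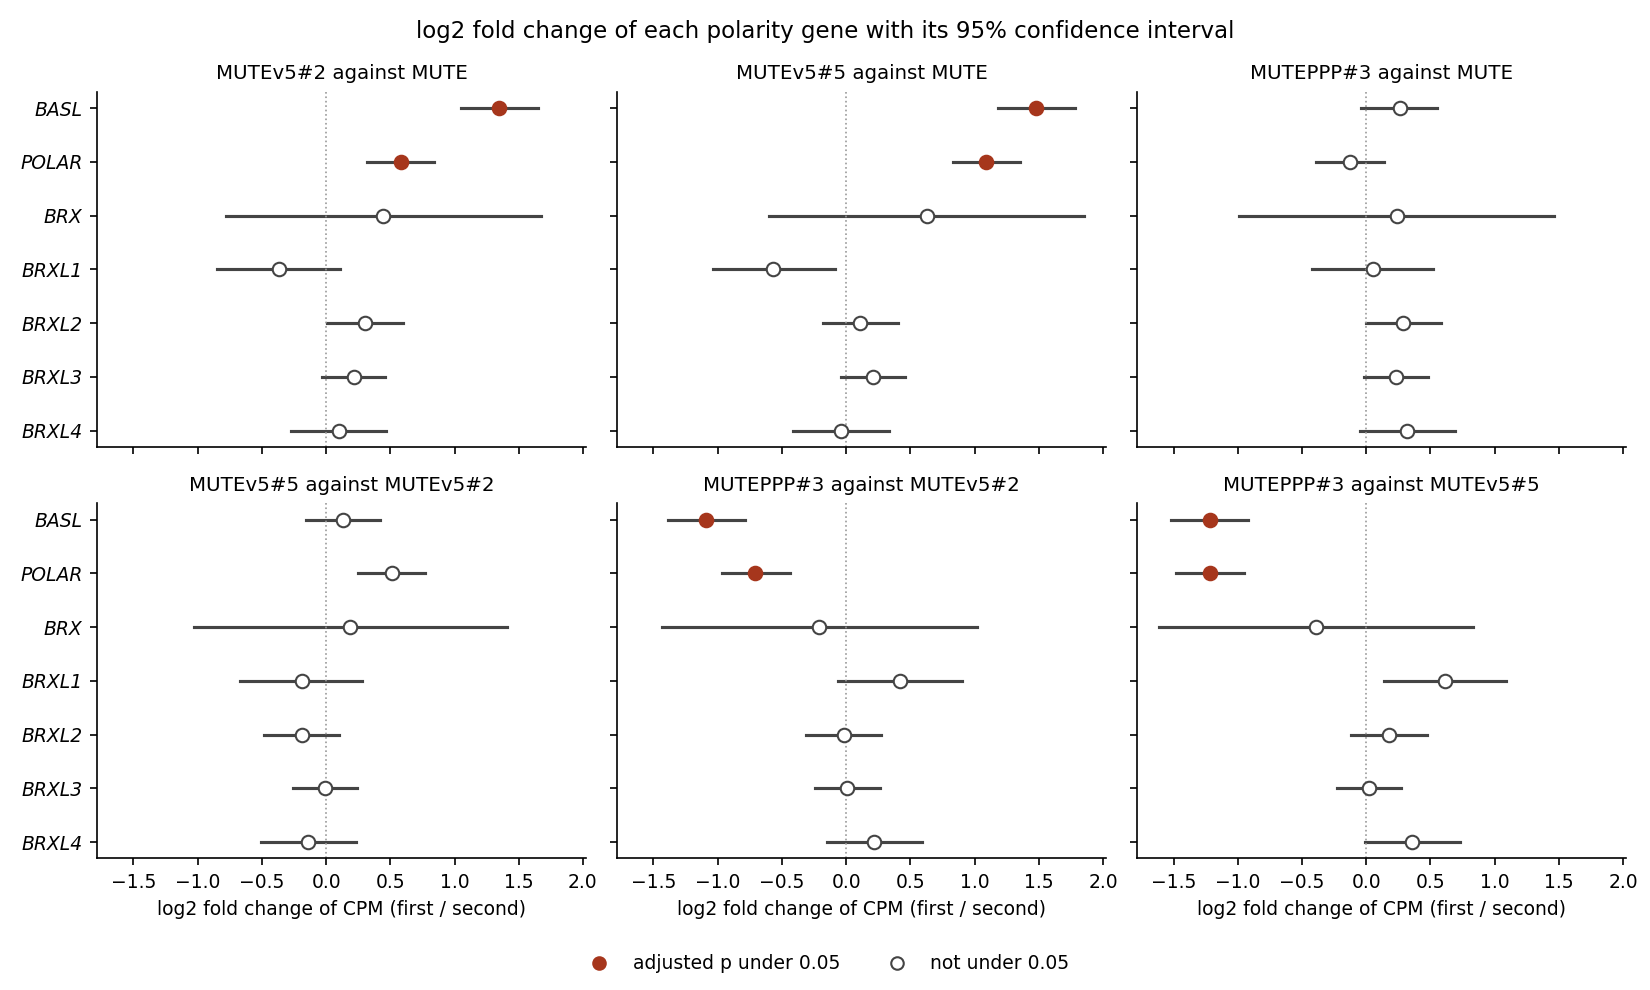
Each point is the log2 fold change of a polarity gene in 1 of 6 comparisons, with its 95% confidence interval; filled points passed an adjusted p of 0.05. *BASL* and *POLAR* are filled in 4 of the 6 comparisons, and the *BRX* interval spans 0 in all of them (from -0.78 to 1.67 in MUTEv5#2 against MUTE).

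*BRX*, the founder of its family and a regulator of root phloem differentiation, was the most variable member. It had 6.40, 6.93 and 2.88 CPM in MUTEv5#2, 10.8, 3.34 and 4.25 CPM in MUTEv5#5, 5.45, 5.05 and 3.55 CPM in MUTEPPP#3, and 7.41, 2.29 and 2.21 CPM in MUTE. Replicates of a line differed by up to 3.35-fold, and all 4 lines overlapped. Its SD was 40.7% of the mean in MUTEv5#2, 66.7% in MUTEv5#5, 21.4% in MUTEPPP#3 and 75.0% in MUTE, against 3.09 to 17.0% for *POLAR*.

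No comparison called *BRX*. Its log2 fold changes against MUTE were 0.44 (interval -0.78 to 1.67) in MUTEv5#2, 0.63 (-0.60 to 1.85) in MUTEv5#5 and 0.24 (-0.99 to 1.46) in MUTEPPP#3, with adjusted p from 0.631 to 0.789. Each interval spans 0 and reaches past 1 log2 unit on its upper side. A single library moved the value: without MUTE replicate 1 the log2 fold change was 1.27, 1.45 and 1.08 in the 3 lines (adjusted p from 0.163 to 0.204), and without MUTEv5#5 replicate 1 that line's was -0.07.

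The 2 libraries with most *BRX* were those with the highest clock index: MUTEv5#5 replicate 1 (10.8 CPM) had an index of 2.78 and MUTE replicate 1 (7.41 CPM) an index of 3.61. The order did not hold further down, where MUTEv5#2 replicates 1 and 2 (6.40 and 6.93 CPM) had 0.86 and 0.51, and MUTEv5#5 replicate 3 (4.25 CPM) had 1.81. In MUTEv5#5 and MUTEPPP#3 the order of the libraries by *BRX* was the order by index, and in MUTEv5#2 the lowest *BRX* value stood with the lowest index, -0.42. In MUTE, replicates 2 and 3 had 2.29 and 2.21 CPM at indices of 0.53 and 0.97. When the index entered the fit, the log2 fold changes against MUTE were 1.15 in MUTEv5#2 (adjusted p = 0.102), 0.74 in MUTEv5#5 (adjusted p = 0.296) and 2.44 in MUTEPPP#3 (adjusted p = 0.0505). The clock and the line differ together in MUTEPPP#3, where their parts cannot be told apart. The phloem list of 9 markers summed to 148 to 180 CPM in MUTEv5#2, 170 to 189 in MUTEv5#5, 155 to 171 in MUTEPPP#3 and 166 to 188 in MUTE. *SUC2* alone averaged 91.6 CPM of a mean sum of 179 in MUTE, and the relation of the list to *BRX* was not tested. The summed 15 genes that act with BRX in the phloem were at 396, 432 and 344 CPM in MUTEv5#2, 476, 383 and 416 CPM in MUTEv5#5, 364, 384 and 350 CPM in MUTEPPP#3, and 481, 363 and 362 CPM in MUTE. Their highest sums, 481 and 476 CPM, were in the 2 libraries with most *BRX*. Such a sum follows its most abundant genes, and the kinase gene *D6PK* alone ran from 45.1 CPM in MUTEPPP#3 to 99.2 CPM in MUTE. Whether the 15 genes each moved with *BRX* was not tested.

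**Figure D3:**
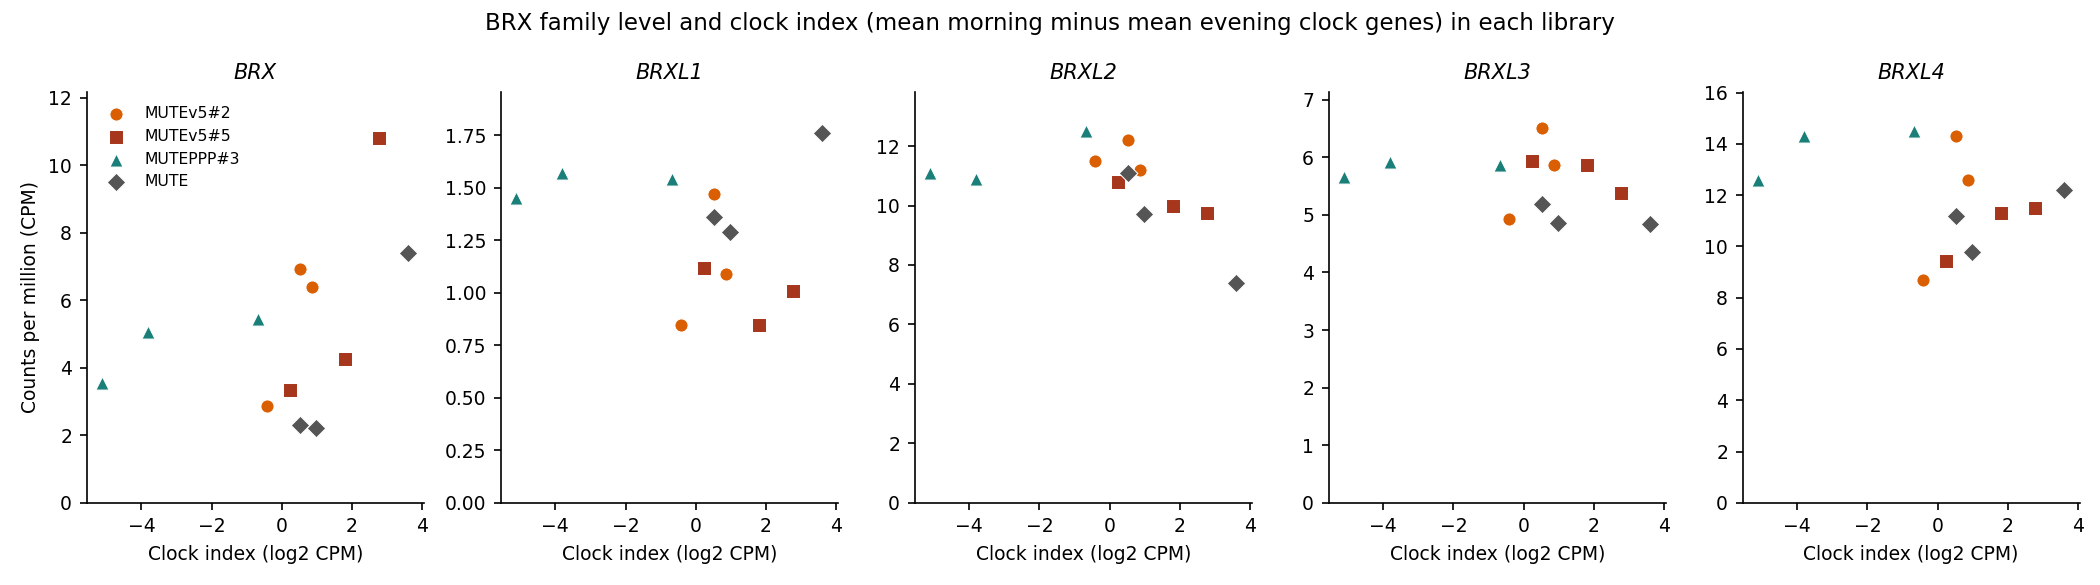
CPM of each *BRX* family gene is plotted against the clock index of the same library, in log2 CPM, for the 12 libraries of the 4 lines. The highest *BRX* values, 10.8 CPM in MUTEv5#5 and 7.41 CPM in MUTE, lie at the highest index values, 2.78 and 3.61, whereas *BRXL2* is lowest at 3.61.

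*BRXL1*, a close relative of *BRX*, was the least abundant member per length. It had 1.09, 1.47 and 0.847 CPM in MUTEv5#2, 1.01, 1.12 and 0.845 CPM in MUTEv5#5, 1.54, 1.57 and 1.45 CPM in MUTEPPP#3, and 1.76, 1.36 and 1.29 CPM in MUTE. The MUTEv5#5 libraries were all below those of MUTEPPP#3 and MUTE. The log2 fold change in MUTEv5#5 against MUTE was -0.57 (interval -1.04 to -0.09, unadjusted p = 0.0246, adjusted p = 0.229), and that in MUTEPPP#3 against MUTEv5#5 was 0.61 (interval 0.14 to 1.09, adjusted p = 0.078 in edgeR and 0.034 in DESeq2). At 111 to 252 counts per library this gene rests on the fewest reads of the 7.

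*BRXL2*, the member placed with BASL at the polar domain, varied little apart from MUTE replicate 1. It had 11.2, 12.2 and 11.5 CPM in MUTEv5#2, 9.74, 10.8 and 9.98 CPM in MUTEv5#5, 12.5, 10.9 and 11.1 CPM in MUTEPPP#3, and 7.40, 11.1 and 9.71 CPM in MUTE. Its log2 fold changes against MUTE were 0.30 (interval 0.01 to 0.60, adjusted p = 0.199) in MUTEv5#2, 0.11 (-0.18 to 0.40) in MUTEv5#5 and 0.29 (0.00 to 0.58, adjusted p = 0.136) in MUTEPPP#3. The last of these became a call at 0.45 without MUTE replicate 2 (adjusted p = 0.0372) and with library totals as the only scaling (adjusted p = 0.0238).

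*BRXL3* and *BRXL4*, less studied relatives, were not called in any comparison either. *BRXL3* stayed within 4.92 to 6.50 CPM in MUTEv5#2, 5.38 to 5.94 in MUTEv5#5, 5.65 to 5.92 in MUTEPPP#3 and 4.84 to 5.18 in MUTE, the narrowest range of the 7 (1.34-fold from lowest to highest library). Its log2 fold changes against MUTE were 0.22, 0.21 and 0.23, with upper bounds of 0.46, 0.46 and 0.48. Library totals as the only scaling, which shift the median gene by 0.166 in MUTEPPP#3 against MUTE, made that value a call at 0.40 (adjusted p = 0.037). *BRXL4* had 12.6, 14.3 and 8.68 CPM in MUTEv5#2, 11.5, 9.43 and 11.3 CPM in MUTEv5#5, 14.5, 14.3 and 12.6 CPM in MUTEPPP#3, and 12.2, 11.2 and 9.79 CPM in MUTE. MUTEPPP#3 lay above MUTE without overlap, with a log2 fold change of 0.32 (interval -0.05 to 0.69, adjusted p = 0.187).

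Levels of different genes were compared as CPM per kilobase of the longest transcript. *BRXL4* averaged 7.48 in MUTEv5#2, 8.71 in MUTEPPP#3 and 6.98 in MUTE, the highest of the 7 in each, although in MUTEv5#2 its range overlapped those of *BASL* and *BRXL2*. In MUTEv5#5 *POLAR* (7.28), *BASL* (7.04) and *BRXL4* (6.78) overlapped at the top, clear of *BRXL2* (4.92) on this length. *BASL* was at 6.44 in MUTEv5#2, above *BRX* and *BRXL3*, whereas at 3.02 in MUTEPPP#3 and 2.53 in MUTE it overlapped *BRXL3*. *BRXL1* was lowest in all 4 lines, at 0.660, 0.576, 0.882 and 0.853 in MUTEv5#2, MUTEv5#5, MUTEPPP#3 and MUTE, below every other member's range. With the mean length of the annotated transcripts in place of the longest, *BRXL2* had higher values, 6.54, 5.72, 6.46 and 5.29 in the same order. On that length *BRXL2* was level with *BASL* (6.51) in MUTEv5#2, and in MUTEv5#5 its range overlapped that of *BRXL4*.

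Summed per kilobase, the *BRX* family was at 20.1 ± 3.89 in MUTEv5#2, 19 ± 2.67 in MUTEv5#5, 21.1 ± 1.63 in MUTEPPP#3 and 17.4 ± 1.95 in MUTE (SD, n = 3), and the libraries of all 4 lines overlapped. *BRXL4* made up 32.9 to 42.2% of that sum in every library and *BRXL1* 2.66 to 5.27%. The *BRX* share ran from 8.16 to 30.4%, with both ends in single libraries, of MUTE and MUTEv5#5.

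**Figure D4:**
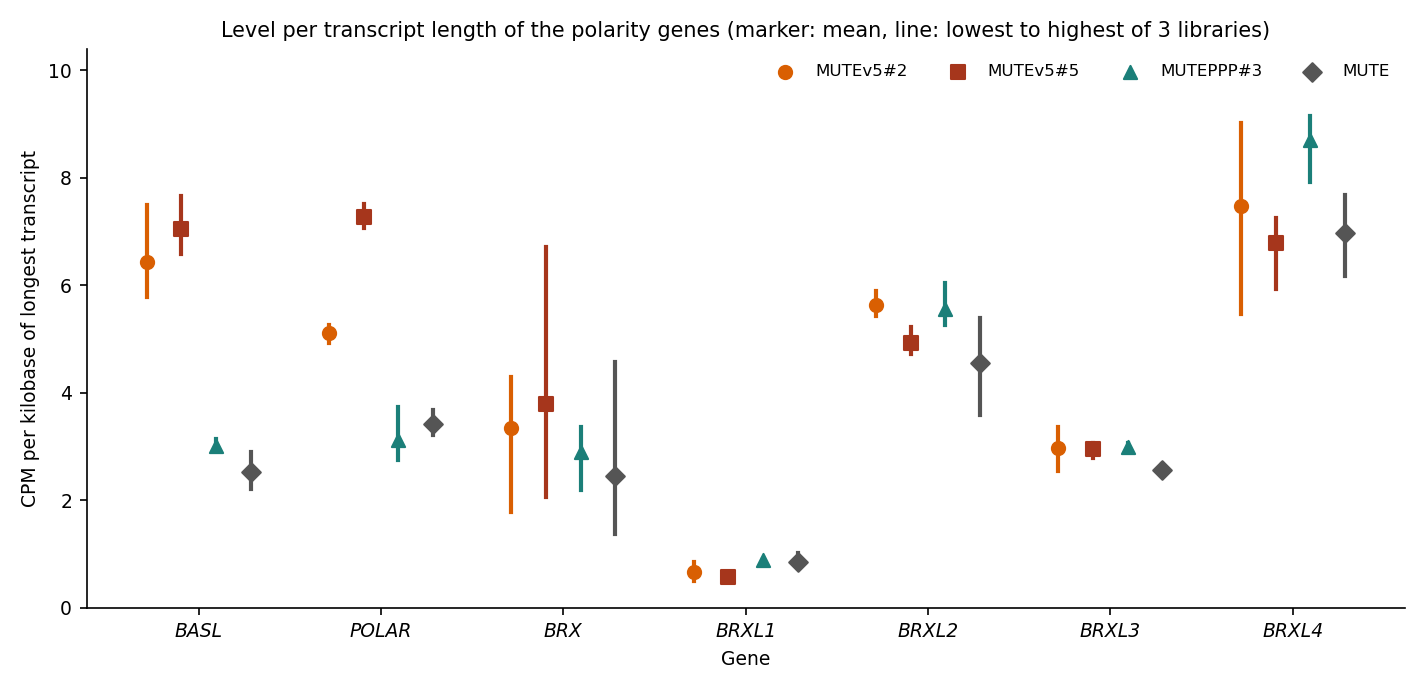
Markers give the mean CPM per kilobase of the longest transcript for each gene in MUTEv5#2, MUTEv5#5, MUTEPPP#3 and MUTE, and lines run from the lowest to the highest of 3 libraries. *BASL* and *POLAR* join *BRXL4* at the top in MUTEv5#5 (7.04, 7.28 and 6.78), and *BRXL1* is lowest throughout.

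Over the 12 libraries and 19178 genes with at least 1 CPM, the genes most like *BASL* were *TMM*, the receptor-like partner of the ERECTA kinases (Pearson r = 0.983 of log2(CPM + 1)), *SPCH*, whose bHLH product starts asymmetric division (0.973), and AT1G33930 (0.939). *TMM* was at 34.1 CPM in MUTEv5#2, 44.7 in MUTEv5#5, 17.6 in MUTEPPP#3 and 15.5 in MUTE. Nearest to *POLAR* were *EMS1*, a receptor kinase known from anthers (0.978), *ICE1*, also called *SCRM*, the bHLH partner of SPCH and MUTE (0.952), and AT4G30230 (0.942). *EMS1* had 8.68, 12.7, 5.72 and 5.38 CPM in MUTEv5#2, MUTEv5#5, MUTEPPP#3 and MUTE, graded like *POLAR*. These values are descriptions over libraries that fall into separate lines, with no test.

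For *BRX* the closest were *GRH1*, an F-box protein of the auxin receptor family (0.971), and AT2G41820 (0.965), both with their highest values in MUTEv5#5 replicate 1 (102 and 88.9 CPM). *BRXL1* had *HA5* (0.888) and *ZFP7* (0.883), *BRXL2* had AT1G16570 (0.944) and AT3G09000 (0.935), *BRXL3* had *KIPK* (0.915) and *mMDH1* (0.906), and *BRXL4* had *UGT73B2* (0.946) and *DPA* (0.942). None of these was on the early lineage list, which holds *TMM*, *SPCH* and *ICE1* of the genes nearest to *BASL* and *POLAR*. *BASL* and *POLAR* had r = 0.89 with each other over all libraries but 0.03 over deviations from the line means, so their likeness lay between lines.

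**Figure D5:**
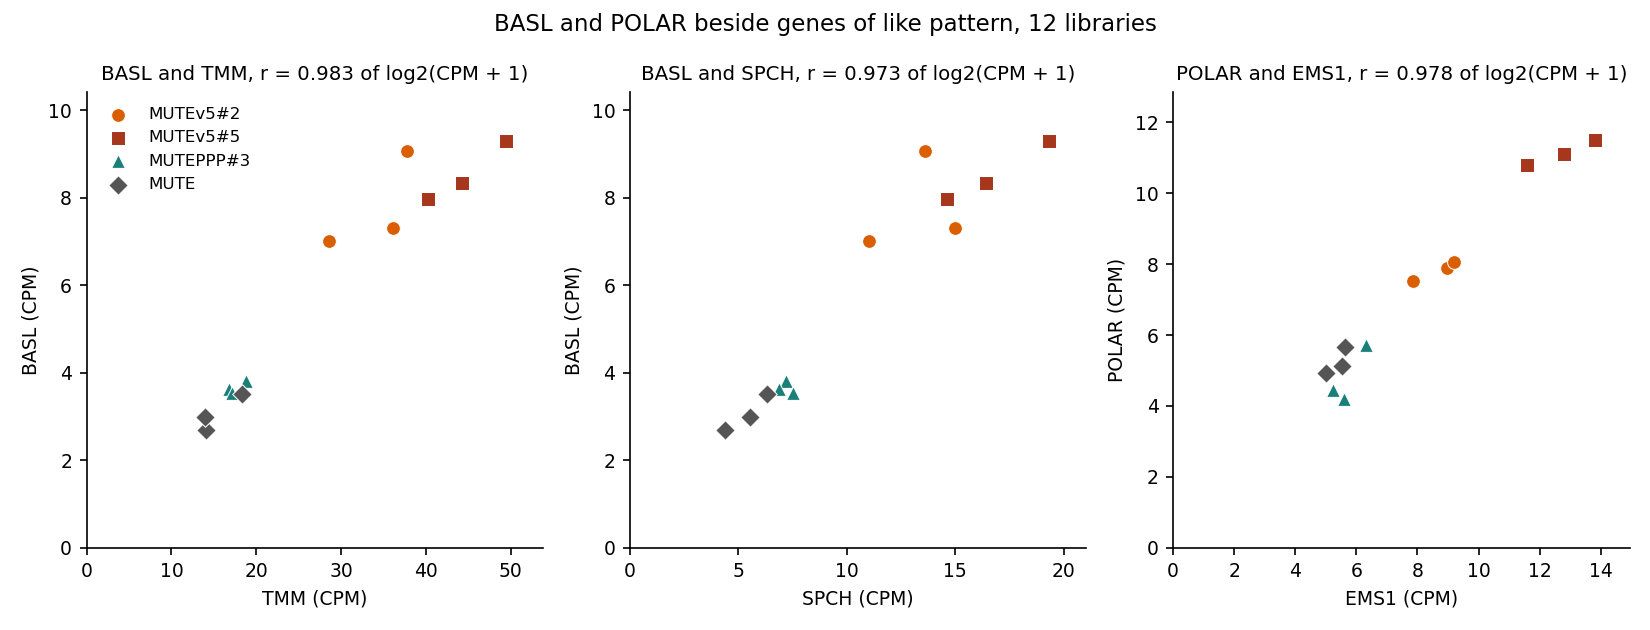
CPM of *BASL* is plotted against CPM of *TMM* and of *SPCH*, and CPM of *POLAR* against that of *EMS1*, with 1 point per library of MUTEv5#2, MUTEv5#5, MUTEPPP#3 and MUTE. The MUTEv5 libraries (28.6 to 49.5 CPM of *TMM*) lie apart from the 6 others (14 to 18.8 CPM).

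Relative to the summed CPM of 8 early lineage genes, both *BASL* and *POLAR* were higher in all 3 variant lines than in MUTE. The sum rests largely on *SCRM* and its paralog *SCRM2*, at 65.5 and 65.8 CPM of 204 in MUTE. In MUTEPPP#3 the sum averaged only 159 CPM, while *POLAR* itself was at 4.79 CPM against 5.24 in MUTE. The higher *POLAR* ratio in that line thus goes with a lower denominator. The *BASL* ratio there has the same lower denominator, with *BASL* itself at 3.66 CPM against 3.07 in MUTE, a difference that was not called. On the log2 scale *BASL* differed by 1.16 in MUTEv5#2, 0.99 in MUTEv5#5 and 0.62 in MUTEPPP#3, and *POLAR* by 0.39, 0.60 and 0.22, each with no overlap. An exact permutation test of 3 against 3 cannot go below p = 0.1, the value reached in each of these.

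The direction depended on the gene chosen as denominator. *POLAR* was at 59.9 ± 7.60%, 67.2 ± 7.10% and 66.4 ± 8.95% of *SPCH* in MUTEv5#2, MUTEv5#5 and MUTEPPP#3, below its 98.5 ± 15.8% in MUTE (SD, n = 3), the opposite direction to the ratio to the list, with no overlap and an exact p of 0.1 each. Per *TMM*, *POLAR* differed from MUTE by -0.56, -0.45 and -0.33 on the log2 scale, without overlap in the MUTEv5 lines and with overlap in MUTEPPP#3. *BASL* was at 22.9 ± 2.31% of *TMM* in MUTEv5#2, 19.1 ± 0.590% in MUTEv5#5, 20.9 ± 0.740% in MUTEPPP#3 and 19.9 ± 1.31% in MUTE, and at 59.7 ± 9.63%, 51.2 ± 3.10%, 50.9 ± 3.40% and 57.0 ± 3.84% of *SPCH* in the same order (SD, n = 3). *TMM* and *SPCH* are the genes most correlated with *BASL* over these libraries, so a ratio to them that varies little follows from how they were named. The differences from MUTE were 0.20, -0.06 and 0.07 per *TMM*, with overlap in each line, and 0.05, -0.16 and -0.16 per *SPCH*, with overlap in both MUTEv5 lines and none in MUTEPPP#3 (exact p = 0.1). Per *TMM*, *BASL* also did not overlap in MUTEv5#5 against MUTEv5#2 (-0.26) and in MUTEPPP#3 against MUTEv5#5 (0.13), with an exact p of 0.1 in both.

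The early lineage list was mixed. Of its 8 genes 4 were higher and 1 lower in MUTEv5#2 than in MUTE, 5 higher and 1 lower in MUTEv5#5, and 1 higher and 4 lower in MUTEPPP#3, beside 5.04, 1.04 and 24.6% of all genes called in either direction. *SPCH* rose by 1.29 and 1.63 on the log2 scale in the MUTEv5 lines, and the secreted peptide gene *EPF2* by 1.91 in each and by 0.78 in MUTEPPP#3 (adjusted p = 0.0406). *SDD1*, a protease gene, had -1.05 and -1.80 in the MUTEv5 lines. *TMM* was higher by 1.14 and 1.53 and *SCRM* by 0.30 and 0.61 there, and the receptor kinase gene *ERL1* by 0.73 in MUTEv5#5. In MUTEPPP#3 the genes called lower were *SCRM* (-0.25), its paralog *SCRM2* (-0.81), *ERL1* (-0.51) and *ERL2* (-0.45). Of the guard cell markers, 9 of 12 were lower in MUTEv5#2 and 8 in MUTEv5#5, beside the same shares of all genes, with a summed 576 to 649 and 422 to 596 CPM, and the sum was 1107 to 1257 CPM in MUTEPPP#3 and 1304 to 1506 CPM in MUTE. They were *FAMA*, *TGG1*, *TGG2*, *SLAC1*, *SCAP1*, *HT1*, *ALMT12* and *BLUS1* in both lines and *KAT2* in MUTEv5#2, and in MUTEPPP#3 *SLAC1* was called higher (0.50) and *ALMT12* lower (-0.64). The guard cell sum rests largely on *TGG1*, which averaged 488 CPM in MUTEv5#2, 414 in MUTEv5#5, 978 in MUTEPPP#3 and 1205 in MUTE. Of the 9 phloem markers 0 were called in any comparison with MUTE by edgeR, DESeq2 or limma-voom. In edgeR 2, 0 and 1 had an unadjusted p under 0.05 in MUTEv5#2, MUTEv5#5 and MUTEPPP#3. The share of all genes at that threshold is not given here.

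Of 14 genes that encode partners of the polar domain, 1 was called higher and 1 lower in each MUTEv5 line, and none higher and 3 lower in MUTEPPP#3, all against MUTE. Beside the 5.04, 1.04 and 24.6% of all genes called, these are 14.3, 14.3 and 21.4% of the list. The list's median log2 fold changes were 0.07, -0.05 and -0.24. AT5G10890 went with *BASL*, at 2.39, 2.84, 1.54 and 1.38 CPM in MUTEv5#2, MUTEv5#5, MUTEPPP#3 and MUTE, with log2 fold changes of 0.79 (adjusted p = 0.0292) and 1.04 (adjusted p = 0.020) in the MUTEv5 lines. *WIT2*, which anchors a myosin at the nuclear envelope, was lower in all 3 lines, with log2 fold changes of -0.46, -0.44 and -0.94. *BIN2*, the kinase brought in by POLAR, was called lower in MUTEPPP#3 (-0.48, adjusted p = 0.0119), as was *BSU1*, a phosphatase (-1.28, adjusted p = 0.0466). *BSU1* was low and widely spread in the control, at 0.361 to 0.477 CPM in MUTEPPP#3 and 0.531 to 1.77 CPM in MUTE. The MAP kinase gene *MPK3* was not called in any of the 3 lines (-0.51, -0.69 and -0.61).

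Of 15 genes that act with BRX in the phloem, 1 was lower in MUTEv5#2, 0 in MUTEv5#5 and 4 in MUTEPPP#3, none higher, which is 6.67, 0 and 26.7% of the list beside 5.04, 1.04 and 24.6% of all genes. DESeq2 called 4, 1 and 4 of them, beside 12, 5.22 and 30% of all genes. With limma-voom 1, 0 and 4 were called, beside 4.91, 1.1 and 23.7% of all genes. In MUTEv5#5 3 had an unadjusted p under 0.05 in edgeR, a threshold for which the share of all genes is not given here. *CVL1*, an inositol phosphatase gene, was lower in MUTEv5#2 (-1.0, adjusted p = 0.0291) and in MUTEPPP#3 (-1.02, adjusted p = 0.0068). Its relative *CVP2* (-0.57) and the auxin transport kinases *D6PK* (-0.61) and *D6PKL1* (-0.40) were lower in MUTEPPP#3. Of 4 genes for RLD proteins, which carry a BRX domain, 1 was lower in MUTEPPP#3, which is 25% of the list beside 24.6% of all genes. It was AT3G47660, at 0.148 ± 0.0659 CPM against 0.406 ± 0.119 CPM in MUTE (log2 fold change -1.45, adjusted p = 0.0324).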

How the data were processed

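Whole-seedling mRNA was sequenced from 12 libraries, 3 per line. The deposited values are counts per gene for 23098 entries, 23071 of them matched by gene ID to TAIR10.1. The lowest count in any library is 1. Per the submitters' processing notes, tools were DESeq2, StringTie 2.1.3b, Bowtie2 2.3.4.1, HISAT2 2.1.0, Trimmomatic 0.38 and FastQC, on TAIR10; what each did, and any strand setting, was not given in the sources used here.

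Counts were tested with edgeR 4.0.16 (quasi-likelihood, trimmed mean scaling, filterByExpr, 22636 genes, 4 group means, all 12 libraries) with Benjamini-Hochberg adjustment over all genes, a gene being called at an adjusted p under 0.05. CPM use the scaled totals; SE and 95% intervals come from the same fit, and intervals are not adjusted for the number of genes. The code was tested on simulated counts, with a common biological coefficient of variation of 0.215 for every gene. In MUTEv5#2 against MUTE it called 49 of 100 genes changed 2-fold in the right direction. Of 100 genes changed 1.5-fold it called 3, and it called 4 unchanged genes. At that spread a gene that is not called may still differ by such amounts. Alternatives were DESeq2 1.42.0, limma-voom 3.58.1 and others given in the closing section. Members and lists were chosen with earlier results of these data known. The named genes were the members, MUTE, the genes most correlated with each member and, of the lists described, those called against MUTE; of a list's other genes, only ones with the smallest p could be named. The region before *BRXL1* is not reported here. Same-numbered libraries deviated together in MUTEv5#5 against MUTE (correlations 0.67, 0.56 and 0.47), so the replicate number pairs that comparison as a pattern in the data. The pattern was partial in MUTEv5#2 against MUTE (0.43, 0.07 and 0.64) and in MUTEv5#5 against MUTEv5#2 (0.40, -0.20 and 0.33). In the comparisons of MUTEPPP#3 the correlations ran from -0.25 to 0.22.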

Additional observations from a re-analysis of the deposited data

How the results depend on the processing

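Of 966 values over 7 genes, 6 comparisons and 23 alternative settings, 907 kept their direction and side of the threshold, 14 were no longer called, 5 became calls and 40 changed sign; no called value changed sign. Counts are deep, with 1 count at most 0.00915 CPM, so the spread between 3 libraries, widest for *BRX*, limits what can be read. The number of members called moved to 1 in MUTEv5#2 against MUTE with only the compared groups or with the ribosomal and organelle share as a covariate, to 2 in MUTEPPP#3 against MUTE with library totals only, to 1 in MUTEv5#5 against MUTEv5#2 and 3 in MUTEPPP#3 against MUTEv5#5 in DESeq2, and in MUTEPPP#3 against MUTEv5#2 to 0 with the clock index as a covariate and to 1 with only the compared groups or the ribosomal and organelle share. Without 1 library it ranged from 1 to 2 in MUTEv5#2 against MUTE, 0 to 1 in MUTEPPP#3 against MUTE, and 1 to 2 in MUTEPPP#3 against MUTEv5#2. With the replicate block it was 2, 2, 0, 0, 2 and 2 in MUTEv5#2, MUTEv5#5 and MUTEPPP#3 against MUTE, MUTEv5#5 against MUTEv5#2, and MUTEPPP#3 against MUTEv5#2 and MUTEv5#5, so the pairing changed no call of a member; over all genes the block gave 1245, 217, 6162, 15, 810 and 4030 calls.

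Sign changes concerned values near 0 or *BRX*. With library totals only, *BRXL4* was 0.04 in MUTEv5#5 against MUTE, *POLAR* 0.04 in MUTEPPP#3 against MUTE and *BRXL2* 0.02 in MUTEPPP#3 against MUTEv5#2. With the clock index as a covariate *BRX* was -0.41 in MUTEv5#5 against MUTEv5#2, 1.30 in MUTEPPP#3 against MUTEv5#2 and 1.70 in MUTEPPP#3 against MUTEv5#5. *BRXL3* in MUTEv5#5 against MUTEv5#2 was 0.00 with limma-voom and 0.01 without a filter. In MUTEPPP#3 against MUTEv5#2, *BRXL2* was 0.00 without a filter and with only the compared groups, and with the ribosomal and organelle share *BRXL2* was 0.05 and *BRXL3* 0.00. Without 1 library in turn, *BRX* ranged from -0.07 to 1.45 in MUTEv5#5 against MUTE, -0.03 to 1.08 in MUTEPPP#3 against MUTE, -0.51 to 0.47 in MUTEv5#5 against MUTEv5#2, -0.51 to 0.01 in MUTEPPP#3 against MUTEv5#2 and -0.66 to 0.30 in MUTEPPP#3 against MUTEv5#5. *BRXL1* ranged from -0.02 to 0.22 in MUTEPPP#3 against MUTE and -0.37 to 0.04 in MUTEv5#5 against MUTEv5#2, and *BRXL2* from -0.04 to 0.24 in MUTEv5#5 against MUTE and -0.08 to 0.02 in MUTEPPP#3 against MUTEv5#2. *BRXL3* ranged from -0.11 to 0.09 in MUTEv5#5 against MUTEv5#2, -0.09 to 0.11 in MUTEPPP#3 against MUTEv5#2 and -0.02 to 0.07 in MUTEPPP#3 against MUTEv5#5, and *BRXL4* from -0.06 to 0.28 in MUTEv5#2 against MUTE, -0.13 to 0.04 in MUTEv5#5 against MUTE and -0.32 to 0.01 in MUTEv5#5 against MUTEv5#2. The causes were not tested.

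On the log2 scale, *BASL* per *SPCH* differed by 0.05, -0.16, -0.16, -0.21, -0.22 and -0.01, and *POLAR* per *SPCH* by -0.71, -0.55, -0.56, 0.17, 0.15 and -0.02, in the order of comparisons given for the block. *BASL* per *TMM* differed by 0.20, -0.06 and 0.07 against MUTE, by -0.26 in MUTEv5#5 against MUTEv5#2, and in MUTEPPP#3 by -0.13 against MUTEv5#2 and 0.13 against MUTEv5#5. *POLAR* per *TMM* differed by -0.56, -0.45 and -0.33 against MUTE, by 0.12 in MUTEv5#5 against MUTEv5#2, and in MUTEPPP#3 by 0.23 against MUTEv5#2 and 0.11 against MUTEv5#5. Per mean transcript length *BRXL2* was at 6.54, 5.72 and 6.46 in MUTEv5#2, MUTEv5#5 and MUTEPPP#3. Over all genes, DESeq2 called 2661, 1156, 6921, 297, 2127 and 5120 genes in the same order, against 1140, 235, 5577, 15, 558 and 3553 in edgeR. With only the compared groups the counts were 171, 42, 3231, 14, 129 and 1894, with the clock index 2389, 668, 2345, 13, 77 and 479, and with the ribosomal and organelle share 74, 88, 5289, 8, 41 and 3053. Library totals only made 1001 of 1401 calls in MUTEv5#2 against MUTE higher, against 336 of 1140.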
